A study of Mus musculus with 10 samples.

Results

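The enzymes and regulators of cholesterol and fatty acid synthesis were followed in mouse cerebral cortex at postnatal day 8, before the peak of myelination. The set was a list of 32 genes chosen by function: 19 enzymes of cholesterol synthesis, 7 regulators and carriers of sterols, and 6 enzymes of fatty acid synthesis. All 32 were found by symbol among the 30935 genes of the deposited table. The data were 10 RNA sequencing libraries of total RNA. 5 came from Rbfox1 +/+ mice, called wild type (replicates 2, 4, 5, 6 and 7), and 5 from mice with HAR.505 deleted on both copies of the Rbfox1 locus, called knockout (replicates 1, 3, 5, 6 and 8). HAR.505 is a human accelerated region, a conserved element whose sequence changed unusually fast on the way to humans. The labels give no strain or sex, and each library is stated to come from an independent sample. Read from Xist and Y-linked counts, 7 libraries were female and 3 male (wild-type replicate 7, knockout replicates 3 and 6).

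Cholesterol does not cross the blood-brain barrier, so the brain makes its own, first in neurons and astrocytes and then, in large amounts, in oligodendrocytes that wrap axons in myelin. The mevalonate steps build isoprenoid units from acetyl-CoA. The later steps join these into squalene, close it into lanosterol and trim lanosterol to cholesterol. Transcription of the pathway is set by SREBP proteins: when membrane sterol is low, SCAP carries SREBP from the endoplasmic reticulum to the Golgi for cleavage, and when sterol is high, INSIG proteins hold it back. SREBP proteins bind sterol regulatory elements in promoters beside general factors, of which NF-Y binds CCAAT boxes and Sp1 binds GC boxes.

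The promoters of the members are shown first, because SREBP control of these genes acts through them. RefSeq windows of 300 bases (250 before and 50 after the annotated start, GRCm38.p6, whereas the counts were made on mm39) were matched for 26 of the 32 genes. They were not matched for Fdps, Fdft1, Sqle, Stard4, Scd1 and Scd2. Both strands were searched for TCACNCCAC, the core of the sterol regulatory element, for CCAAT and for GGGCGG, the GC box. The bases upstream of the start are printed for 5 members, with the matches to CCAAT (or ATTGG on the other strand) and to TCACNCCAC in capitals. Hmgcs1 (chr13:119690101-119690350 on the plus strand) is shown because it alone among the 26 held the sterol element core, Mvk (chr5:114444069-114444268 on the plus strand) and Msmo1 (chr8:64733579-64733778 on the minus strand) because of their rows of CCAAT boxes, Fasn (chr11:120824548-120824667 on the minus strand) because 2 of its boxes overlap head to head, and Abca1 (chr4:53159896-53160095 on the minus strand) because it had none.
Hmgcs1: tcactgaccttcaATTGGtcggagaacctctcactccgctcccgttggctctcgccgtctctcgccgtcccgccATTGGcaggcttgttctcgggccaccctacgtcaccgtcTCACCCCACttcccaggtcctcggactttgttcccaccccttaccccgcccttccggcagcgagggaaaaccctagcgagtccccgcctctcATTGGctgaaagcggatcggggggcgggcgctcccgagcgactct
Mvk: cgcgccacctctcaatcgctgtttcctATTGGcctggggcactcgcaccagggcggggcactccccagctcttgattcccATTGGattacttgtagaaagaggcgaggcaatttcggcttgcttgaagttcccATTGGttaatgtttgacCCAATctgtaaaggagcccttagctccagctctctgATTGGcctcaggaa
Msmo1: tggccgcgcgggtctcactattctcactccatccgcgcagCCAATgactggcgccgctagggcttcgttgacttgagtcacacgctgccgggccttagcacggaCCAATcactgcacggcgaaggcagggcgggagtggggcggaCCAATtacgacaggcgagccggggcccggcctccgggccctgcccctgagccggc
Fasn: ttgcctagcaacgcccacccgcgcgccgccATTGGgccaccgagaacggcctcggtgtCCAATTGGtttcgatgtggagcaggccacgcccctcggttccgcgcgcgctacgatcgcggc
Abca1: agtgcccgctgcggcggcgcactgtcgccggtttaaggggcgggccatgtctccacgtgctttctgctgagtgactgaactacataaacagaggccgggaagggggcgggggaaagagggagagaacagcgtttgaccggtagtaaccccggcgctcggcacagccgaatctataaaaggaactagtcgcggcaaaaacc

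The sterol element core was found in 1 of the 16 cholesterol enzyme genes with a window, Hmgcs1, and in 1.44% of the 27025 genes with a window. A CCAAT box was found in 15 of these 16 genes (93.8%), all except Acat2, against 41.1% of all genes with a window and 42.5% of those tested for expression. At least 2 boxes were found in 10 of the 16 (62.5%), against 13.3% of all genes with a window. Mvk held 5, Hmgcs1 and Nsdhl 4 each, and Msmo1 and Hsd17b7 3 each. The GC box was present in 15 of the 16 (93.8%), all except Pmvk, against 38.2% of all genes and 66.1% of tested genes. Of the 4 fatty acid genes with a window, Fasn and Acly held a CCAAT box, and Elovl6 and Acaca held none of the 3 motifs. A gene with several annotated starts was counted when any of its windows had a match, which for Dhcr7 was the third of its 3. The Fasn pair was the only overlap between matches among the members. A match describes letters in this window and is not evidence that a factor binds there. Nor is a missing match evidence that a gene lacks such an element, since only exact strings in these windows were searched.

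**Figure D1:**
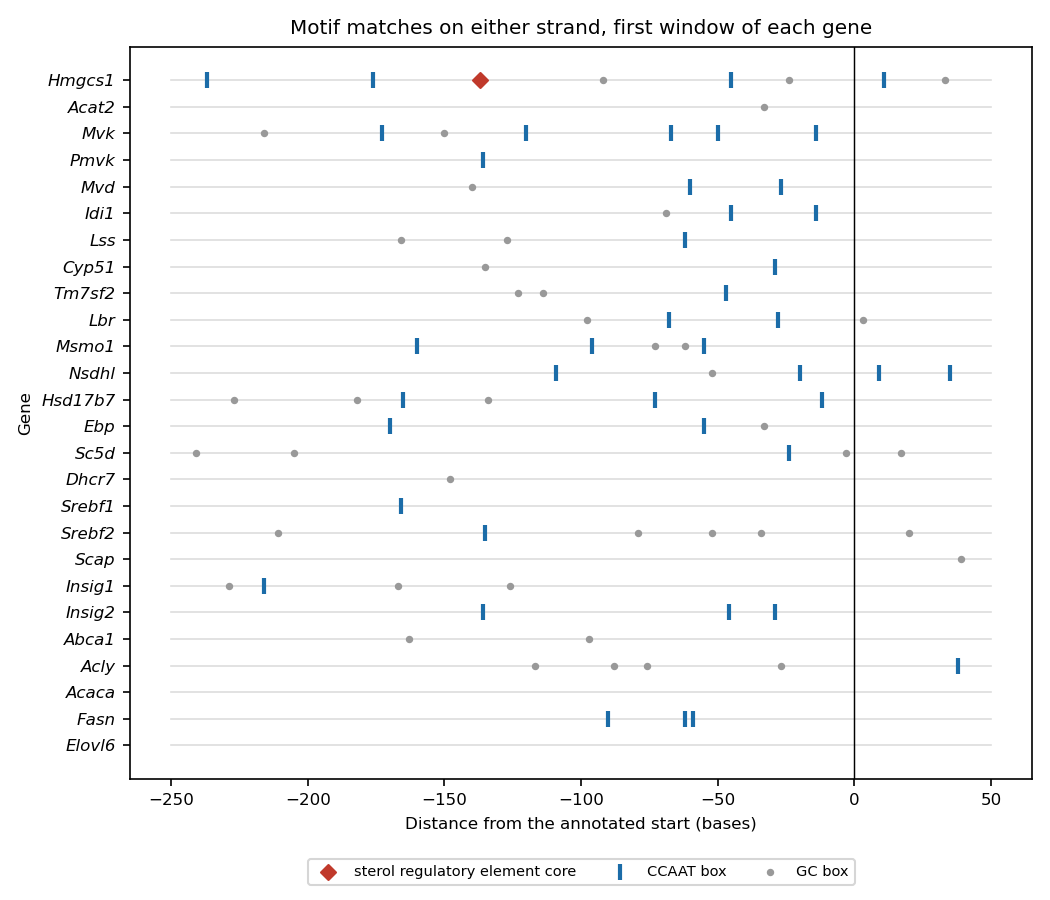
Matches to the sterol regulatory element core (diamond), CCAAT box (blue bar) and GC box (grey dot) on either strand, by distance in bases from the annotated start, for the first window of each of the 26 members with one. Hmgcs1 carries the only sterol element core, and CCAAT boxes lie just before the start of most cholesterol enzyme genes but are missing from Acat2, Scap, Abca1, Acaca and Elovl6, and from the first window of Dhcr7.

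All 32 genes passed the filter on low counts, as did 15488 genes in all. Library totals ran from 16479594 to 22391943 counts, and levels are given as CPM (counts divided by the TMM-scaled library total and expressed at the usual common depth). The deposited counts hold no gene lengths, so levels of different genes were compared as CPM per kb of annotated exon (GENCODE M21), an approximation because the authors' annotation is not given in the sources used here. On this scale Scd2, the main stearoyl-CoA desaturase of the developing brain, was the highest at 335 ± 9.36 CPM per kb in wild type (SD, n = 5), followed by Hmgcs1, which makes HMG-CoA at the entry to the mevalonate steps, at 206 ± 9.03. Both kept these places when the longest transcript was used as the length. Then came Fasn, the fatty acid synthase, at 60.7 ± 2.99, and Srebf2, which encodes the SREBP that drives cholesterol genes, at 47.8 ± 1.44, and these changed places with the longest transcript. Acat2 (45.6 ± 3.55) and Acly (43.7 ± 1.04) followed, and the intervals of mean ± SD overlapped between Srebf2 and Acat2 and between Acat2 and Acly. From Sqle (37.6 ± 2.29) down to Fdft1 (34.5 ± 0.765) each gene also lay within the SD of its neighbour in the order.

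The lower end was held by Ebp, the sterol isomerase, at 4.36 ± 0.810 CPM per kb, and Lbr, at 2.58 ± 0.125. Lbr encodes the lamin B receptor, an inner nuclear membrane protein that is also a sterol C14 reductase. Tm7sf2, which encodes the other C14 reductase, stood higher at 11.0 ± 1.24. Srebf1, at 9.10 ± 0.548, was about as high as the sterol exporter gene Abca1 (9.19 ± 0.644) and below Srebf2. Insig1, which encodes an INSIG protein that holds back SREBP, stood at 29.8 ± 2.29, above its relative Insig2 at 7.59 ± 0.609.

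**Figure D2:**
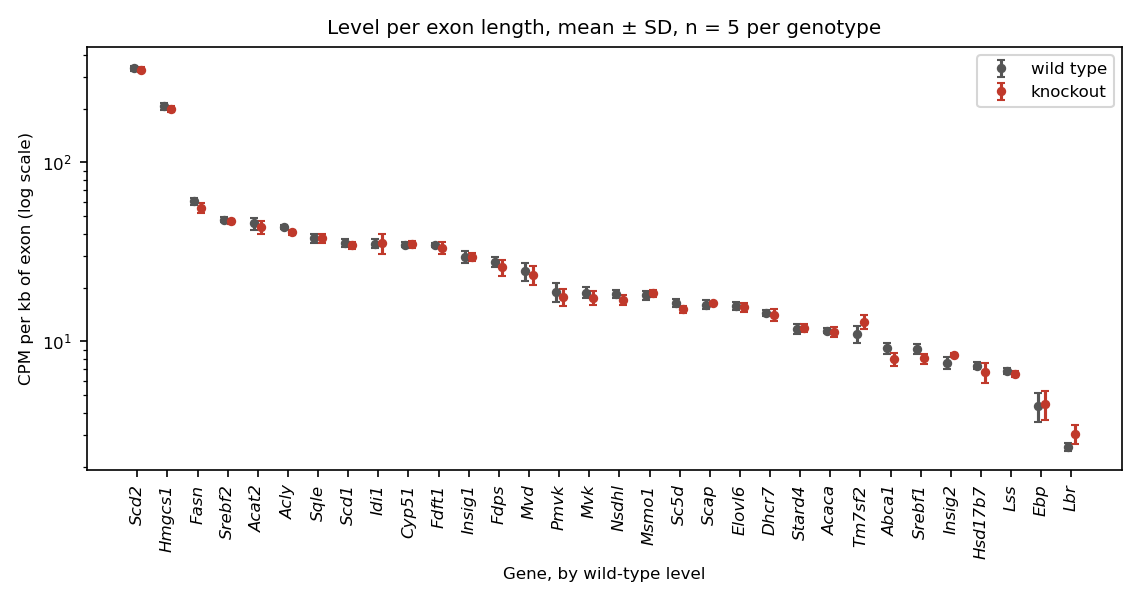
Level of each member as CPM per kb of annotated exon on a log axis, mean ± SD over 5 wild-type (grey) and 5 knockout (red) libraries, in order of the wild-type level. Scd2 and Hmgcs1 stand apart at the top, at 335 and 206 in wild type, Ebp and Lbr at the bottom, and the genotypes lie close together throughout.

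Levels of the members were steady between animals. The coefficient of variation within a genotype had a median of 5.76% over the 32 genes, from 2.94% for Srebf2 to 18.5% for Ebp. Replicates of a genotype nevertheless differed by more than sampling noise (chi-square per degree of freedom 4.10 to 13.9 over pairs), so each library was counted as 1 replicate.

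Between the genotypes, none of the 32 genes passed the test. 0 of 32 had an adjusted p under 0.05 in edgeR's quasi-likelihood test, where 0.381% of all 15488 tested genes did (59 genes, 0.187% higher and 0.194% lower in knockout). DESeq2 and limma-voom also called 0 members. 7 members had an unadjusted p under 0.05, which is 21.9% of them, where 8.71% of all tested genes did. 5 of the 7 had a lower mean in knockout (Abca1, Srebf1, Fasn, Acly and Sc5d) and 2 a higher mean (Tm7sf2 and Lbr), and for all tested genes the shares were 4.52% and 4.19%. For 0 members did all knockout libraries lie on one side of all wild-type libraries, against 1.83% of tested genes. The 95% intervals of the fold change bound what these libraries can show: 25 of 32 included 1, and the outermost bounds over all members were 0.794 and 1.38 (Abca1 and Lbr). The count of 7 was 4 without wild-type replicate 7 or without knockout replicate 6. It was 2 without knockout replicates 3, 5 and 6, in which little choroid plexus RNA was found. That fit kept only knockout replicates 1 and 8, both female, so it also had fewer libraries and no male knockout. The part of each in the lower count was not tested.

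**Figure D3:**
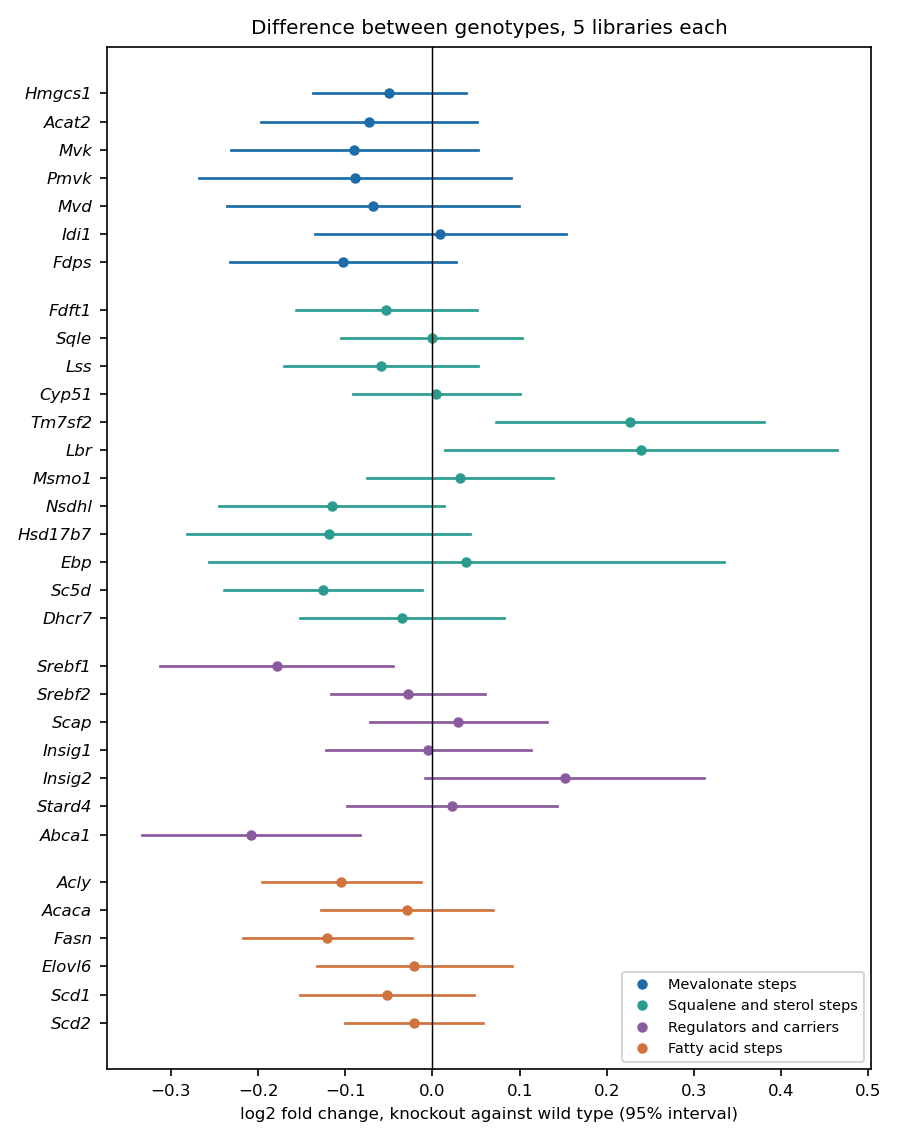
Log2 fold change of each member, knockout against wild type (point), with its 95% interval (line) over 5 libraries per genotype, coloured by group of steps. Intervals of Tm7sf2 and Lbr lie above 0 and those of Sc5d, Srebf1, Abca1, Acly and Fasn below it, before adjustment for the number of genes tested.

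The mevalonate genes had slightly lower means in knockout in 6 of 7 cases, where 7878 of all 15488 tested genes had a negative log2 fold change. Their median log2 fold change was -0.073, and the median of all tested genes was -0.0021. None of the 7 reached an unadjusted p under 0.05. Hmgcs1 averaged 948 ± 41.5 CPM over the wild-type libraries and 916 ± 35.7 CPM over the knockout libraries (SD, n = 5 each), with a 95% interval of the fold of 0.909 to 1.03 (log2 fold change -0.050, SE 0.0428, adjusted p = 0.839). The wild-type libraries held 899.9, 966, 914, 956 and 1003 CPM of Hmgcs1 in replicate order, and the knockout libraries 919, 958, 897, 867 and 939. The genotypes overlapped over most of their range. Fdps, which makes farnesyl diphosphate, the branch point to sterols and to lipid anchors of proteins, had the lowest fold change of the group, from 117 to 109 CPM (log2 fold change -0.10, SE 0.0632, adjusted p = 0.705). Mvk (mevalonate kinase, -0.089), Pmvk (phosphomevalonate kinase, -0.088), Acat2 (acetoacetyl-CoA thiolase, -0.073) and Mvd (mevalonate diphosphate decarboxylase, -0.068) lay between it and Hmgcs1. Without wild-type replicate 4, Pmvk was at -0.0161, Mvd at -0.0084 and Acat2 at -0.0295, and the median of the group was -0.0295; without knockout replicates 3, 5 and 6 that median was -0.028. Idi1, the isopentenyl diphosphate isomerase, had the only positive value, 0.0089 (SE 0.0692). Its highest library was knockout replicate 8 at 149.9 CPM and its lowest knockout replicate 1 at 108 CPM, so the knockout libraries spanned the whole range of the data.

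Among the squalene and sterol steps both C14 reductase genes had the highest fold changes of all 32 members. Tm7sf2 averaged 48.4 ± 5.45 CPM over the wild-type libraries and 56.6 ± 5.19 CPM over the knockout libraries (SD, n = 5 each). In replicate order its wild-type libraries held 46.9, 49.8, 47.3, 41.6 and 56.6 CPM and its knockout libraries 51.0, 63.8, 54.8, 60.1 and 53.6 CPM. Wild-type replicate 7 lay among the knockout libraries, and the other 4 wild-type libraries lay below all of them. The difference missed the threshold of edgeR's test (log2 fold change 0.23, SE 0.0749, adjusted p = 0.277, unadjusted p = 0.00527). It was 0.11 without knockout replicates 3, 5 and 6 (adjusted p = 0.914), a fit that kept only knockout replicates 1 and 8, both female. The annotated exons of Tm7sf2 share 532 bases (12.1% of them) with Vps51 on the same strand, and Vps51 had a log2 fold change of -0.013 (SE 0.0645).

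Lbr averaged 12.3 ± 0.596 CPM over the wild-type libraries and 14.5 ± 1.85 CPM over the knockout libraries, with 12.6, 11.8, 12.2, 13.1 and 11.8 CPM in the wild-type and 12.8, 14.0, 13.4, 17.6 and 14.8 CPM in the knockout libraries. Knockout replicate 6 was the highest of these, and only knockout replicate 1 lay within the wild-type range. Its log2 fold change of 0.24 (SE 0.11) missed the threshold of edgeR's test (adjusted p = 0.523) and was 0.16 without knockout replicate 6.

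Sc5d, which encodes the lathosterol desaturase near the end of the pathway, had the lowest fold change of the 12 (log2 fold change -0.13, SE 0.0557, adjusted p = 0.492). Its values were 77.2, 87.1, 75.9, 79.4 and 81.1 CPM in wild type and 77.8, 72.7, 73.0, 68.9 and 75.01 CPM in knockout, with wild-type replicate 4 highest and knockout replicate 6 lowest. Hsd17b7, a sterol ketoreductase gene (-0.12, SE 0.0795), and the X-linked Nsdhl, which encodes the sterol C4 decarboxylase (-0.12, SE 0.0633), also had lower means in knockout without reaching an unadjusted p under 0.05. The remaining genes lay closer to 0: Lss, the lanosterol synthase (-0.059), Fdft1, the squalene synthase (-0.053), Dhcr7, the last reductase of one branch (-0.035), Sqle, the squalene epoxidase (-0.0010, and 0.0006 with RLE size factors), Cyp51, the lanosterol demethylase (0.0044, and below 0 with library totals alone or upper quartile factors), Msmo1, the C4 methyl oxidase (0.031), and Ebp (0.039, SE 0.145). For Sqle the 95% interval of the fold spanned 0.930 to 1.07 and for Cyp51 0.938 to 1.07. Ebp, at about 10.1 CPM, had the widest interval, 0.837 to 1.26. Fdft1 shares 774 exon bases (18.3%) with Ctsb on the opposite strand, Fdps 1124 bases (26.7%) with Gm43738 on the same strand, and Cyp51 166 bases (3.76%) with Akap9 on the opposite strand. Reads from the shared bases cannot be told apart for the same-strand pairs, nor, with no strand setting stated, for the opposite-strand pairs.

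Summed over the 19 cholesterol enzymes, the libraries held 2451 ± 87.0 CPM in wild type (2369 to 2554) and 2388 ± 105 CPM in knockout (2296 to 2518; SD, n = 5 each). These ranges overlapped over most of their width.

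Of the regulators and carriers, Abca1 and Srebf1 had the lowest fold changes. Abca1 encodes the transporter that loads cholesterol onto lipoproteins. Abca1 averaged 95.2 ± 6.67 CPM over the wild-type libraries and 82.5 ± 7.02 CPM over the knockout libraries (SD, n = 5 each). In replicate order it held 93.0, 86.3, 93.2, 100.5 and 103 CPM in wild type and 72.1, 83.9, 91.7, 83.5 and 81.2 CPM in knockout. Knockout replicate 1 was lowest, and knockout replicate 5 was the only knockout library inside the wild-type range. This was the smallest p of the 32 members, and it missed the threshold of edgeR's test (log2 fold change -0.21, SE 0.0614, adjusted p = 0.184, unadjusted p = 0.00202, 95% interval of the fold 0.794 to 0.944). With no filter on low counts it passed (log2 fold change -0.21, adjusted p = 0.0446), and over its other alternatives the adjusted p ran from 0.0847 to 1. Without knockout replicates 3, 5 and 6 the difference was larger, -0.31 (adjusted p = 0.127).

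Srebf1, which encodes the SREBP that favours fatty acid genes, averaged 51.2 ± 3.09 CPM over the wild-type libraries and 45.3 ± 2.98 CPM over the knockout libraries. Its wild-type libraries held 50.9, 50.4, 55.2, 52.9 and 46.9 CPM and its knockout libraries 45.1, 44.8, 41.4, 49.8 and 45.3 CPM. Knockout replicate 6 lay inside the wild-type range and wild-type replicate 7 inside the knockout range. The test was not passed (log2 fold change -0.18, SE 0.0653, adjusted p = 0.351, unadjusted p = 0.0105). Srebf2, the SREBP gene of the cholesterol branch, held 339, 328, 352, 354 and 343 CPM in wild type and 342, 343, 346, 327 and 326 CPM in knockout, with broad overlap (-0.028, SE 0.0434; 95% interval of the fold 0.922 to 1.04). Scap (0.030, SE 0.0498), Insig1 (-0.0046, SE 0.0574) and Stard4, which encodes a cytosolic sterol carrier (0.023, SE 0.059), had intervals on both sides of no change. Insig2 held 26.4, 29.1, 26.4, 23.2 and 26.7 CPM in wild type and 30.4, 28.5, 29.0, 29.9 and 28.5 CPM in knockout. All 5 knockout libraries lay above 4 of the 5 wild-type libraries, and wild-type replicate 4 lay among them (log2 fold change 0.15, SE 0.078, adjusted p = 0.605, unadjusted p = 0.062).

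All 6 fatty acid genes had lower means in knockout, with a median log2 fold change of -0.041, also under the other scalings, and none passed the test. The median was -0.0684 without knockout replicates 3, 5 and 6. Of all 15488 tested genes 7878 had a negative log2 fold change. A wider list of fatty acid supply, elongation and desaturation leaned the other way. Of its 33 tested genes 21 had a positive log2 fold change and 12 a negative one, with a median of 0.036. Fasn, which builds palmitate, averaged 664 ± 32.8 CPM over the wild-type libraries and 611 ± 37.7 CPM over the knockout libraries (SD, n = 5 each). Its libraries held 650.4, 641, 638, 716 and 676 CPM in wild type and 604, 606, 663, 558 and 622 CPM in knockout. Wild-type replicate 6 was highest and knockout replicate 6 lowest, and knockout replicate 5 lay inside the wild-type range (log2 fold change -0.12, SE 0.0474, adjusted p = 0.408, unadjusted p = 0.0165). Acly, the citrate lyase that supplies cytosolic acetyl-CoA to both pathways, held 230.1, 229.9, 223, 238 and 232 CPM and 211, 215, 216, 205 and 226 CPM. Knockout replicate 8 was the only knockout library inside the wild-type range (log2 fold change -0.10, SE 0.0445, adjusted p = 0.457, unadjusted p = 0.0256). Scd1 (-0.052), Acaca, the acetyl-CoA carboxylase (-0.029), Scd2 (-0.021) and the elongase gene Elovl6 (-0.021) lay closer to 0. Scd2, the highest of the set, held 1769, 1832, 1894, 1869 and 1795 CPM in wild type and 1748, 1781, 1824, 1897 and 1774 CPM in knockout, and its 95% interval of the fold, 0.933 to 1.04, went with the smallest SE of the set (0.0386). Scd1 and Scd2 are related in sequence, and how reads matching both were counted is not given in the sources used here.

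**Figure D4:**
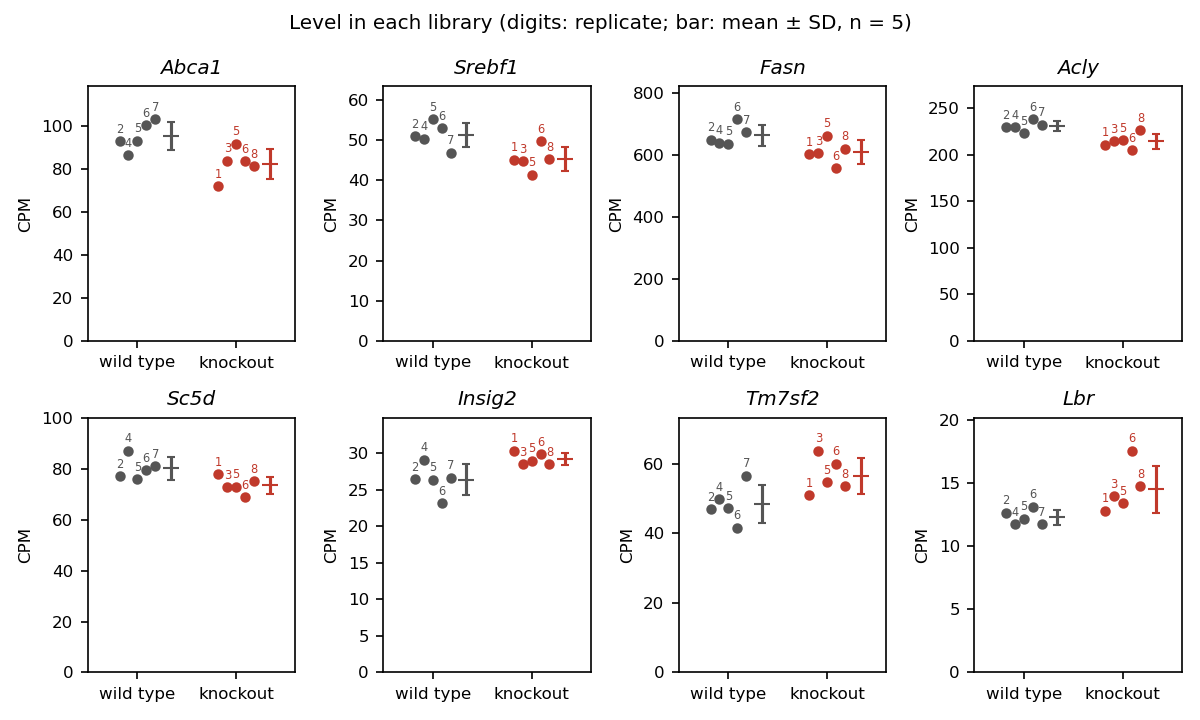
CPM in each library for the 7 members with an unadjusted p under 0.05 and for Insig2; each point is 1 library labelled with its replicate number, and the bars show mean ± SD (n = 5). In every panel at least 1 library of one genotype lies inside the range of the other.

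RNA of neighbouring tissue differed between these libraries. The 9 choroid plexus markers summed to 242 to 309 CPM in wild type and 10.5, 13.2 and 16.3 CPM in knockout replicates 3, 5 and 6, 94.98 CPM in replicate 8 and 224.5 CPM in replicate 1. All 9 had lower means in knockout, 7 of them with an unadjusted p under 0.05, and 2 passed the test. Ttr was at 0 in knockout replicate 3 and Otx2 in 2 libraries. The 9 striatal markers summed to 233 to 377 CPM and 179 to 243 CPM. All 9 had lower means in knockout, 8 of them with an unadjusted p under 0.05, and 2 passed the test. Of 20 oligodendrocyte lineage markers 18 were tested and 0 passed. Of the 18, 16 had higher means in knockout, with 0 at an unadjusted p under 0.05. Their sum was 917 to 1129 CPM in wild type and 945 to 1101 CPM in knockout, and the late myelin gene Opalin was at 0 in 7 of 10 libraries while Mbp stood at 129 and 134 CPM. The 12 astrocyte markers summed to 4275 to 4810 CPM and 4408 to 5170 CPM, with 0 called and 4 at an unadjusted p under 0.05, all higher in knockout. Cortical neuron markers were present in every library (3374 to 3768 CPM and 3554 to 3926 CPM, 0 of 9 called, 3 at an unadjusted p under 0.05, of which 2 were higher in knockout). Microglial (184 to 195 CPM and 176 to 233 CPM), endothelial (190.3 to 203 CPM and 174.5 to 214 CPM), meningeal (462 to 512 CPM and 351 to 561 CPM) and red cell markers (483 to 683 CPM and 386 to 693 CPM) had 0 of 5 called each. The microglial markers had higher means in knockout in 5 of 5, with 0 at an unadjusted p under 0.05. The red cell markers had lower means in knockout in 5 of 5, with 2 at an unadjusted p under 0.05. The part of these shifts in the differences of Abca1, Srebf1, Fasn, Acly, Tm7sf2 and Lbr was not tested. In bulk tissue fewer cells of a type and less RNA per cell cannot be told apart.

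Variation between animals was partly shared among the cholesterol enzymes. After the mean of each genotype was subtracted, Pearson's r of log2 CPM over the 10 libraries had a median of 0.32 over the 171 pairs of the 19 enzymes, and 144 pairs (84.2%) were positive. The median over all 119931328 pairs of tested genes was -0.0008, with 49.9% positive and an upper quartile of 0.27. Within the mevalonate genes the median was 0.44 over 21 pairs and within the fatty acid genes 0.41 over 15. Between enzymes of the 2 pathways it was 0.10 over 114 pairs. These are descriptions with no p: all points come from the same 10 libraries and share their preparation and depth. Differences by sex were not subtracted, and their part in these r was not tested.

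Fdft1 stood at the centre of this pattern, with a positive r to each of the other 18 enzymes (median 0.56) and r = 0.86 with Idi1. Against the mean profile of the other enzymes Fdft1 reached r = 0.87, rank 30 of 15488 tested genes, and Fdps 0.83 (rank 70), Idi1 0.78 (rank 165) and Cyp51 0.75 (rank 218) followed. On this measure Lbr was at -0.017, and Sc5d, Ebp and Hsd17b7 lay at 0.18 to 0.21. The median r of Lbr with the other 18 enzymes was 0.043, with 12 positive. For the regulators and carriers, the median r with the 19 enzymes was 0.29 for Insig1, 0.26 for Stard4, itself known as an SREBP target, 0.21 for Insig2 and 0.076 for Abca1. Srebf2 ran against most of the enzymes: its median r was -0.36, with 3 of 19 positive. Its lowest values were -0.915 with Pmvk and -0.908 with Mvd. Srebf2 was also the least variable member within a genotype (coefficient of variation 2.94%), so these r rest on small shifts. Over all pairs of tested genes the quartiles of r were -0.27 and 0.27. Srebf1 had a median of -0.18 and Scap -0.13. The fatty acid genes divided, with Acaca (0.30), Acly (0.30) and Elovl6 (0.30) positive in median against the enzymes, Scd1 at 0.079, Fasn at -0.016 and Scd2 at -0.16. Stard4 and Elovl6 gave the highest r of any pair of members, 0.93.

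By library, knockout replicate 8 had 16 of 19 enzymes above its genotype's mean and knockout replicate 1 had 3 of 19. Wild-type replicates 4 and 7 had 17 and 15 of 19, and wild-type replicates 5 and 6 had 5 each. Knockout replicate 5 had 2 of 19 and knockout replicates 3 and 6 had 13 and 8. Knockout replicates 1 and 8 had the lowest and the highest summed enzyme level of the knockout libraries, with summed oligodendrocyte markers of 1027 and 1043 CPM and astrocyte markers of 4653 and 4408 CPM. The sum of the 19 enzymes was 2296 CPM in knockout replicate 1 and 2518 CPM in knockout replicate 8. These libraries were picked as the extremes of 5, so the distance between them cannot be weighed against the difference between the genotype means.

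**Figure D5:**
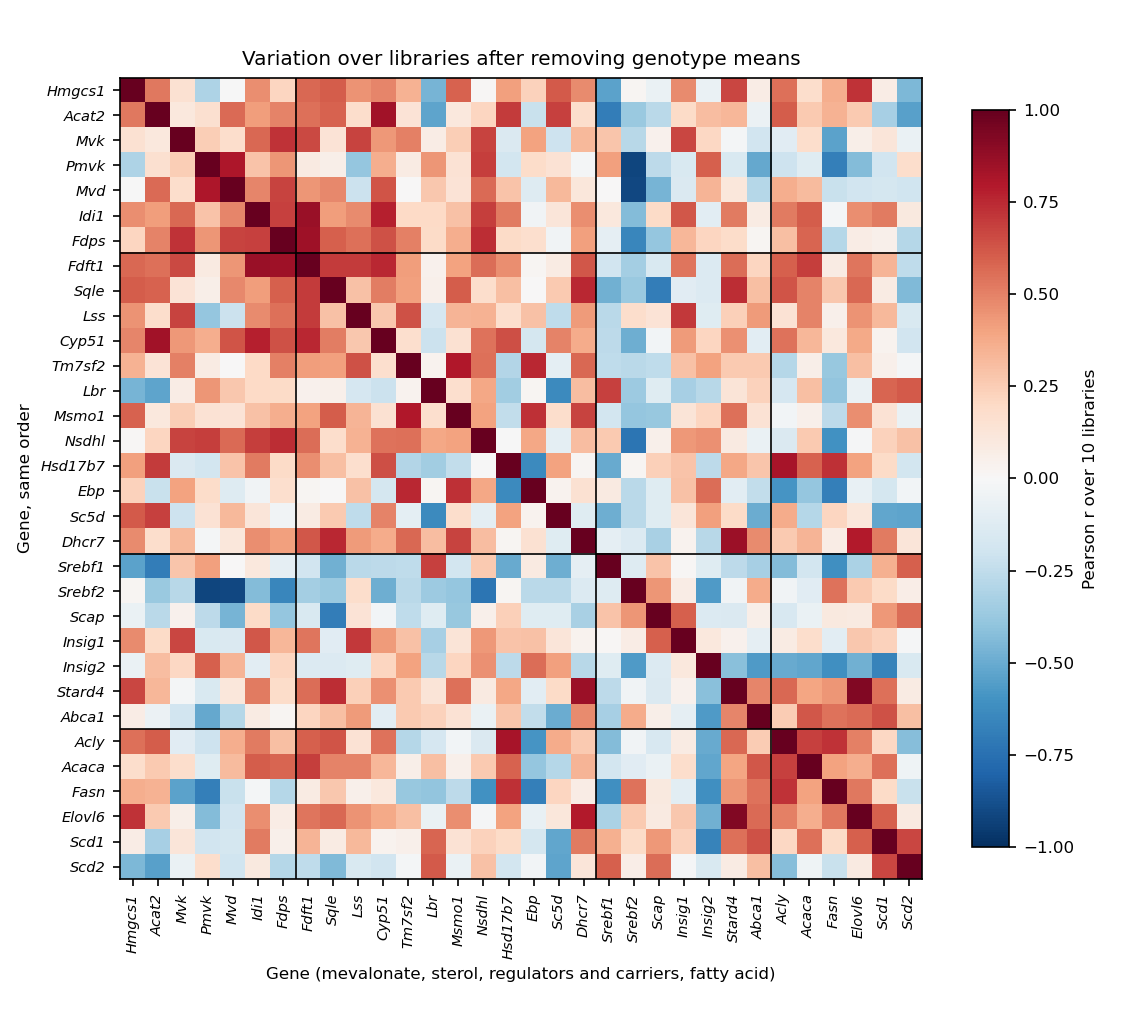
Pearson's r between members over 10 libraries after removing genotype means, from -1 (blue) to 1 (red); black lines part the mevalonate, sterol, regulator and carrier, and fatty acid groups. The upper left blocks are mostly red (144 of 171 enzyme pairs positive), and the row of Srebf2 is mostly blue.

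Outside the set, the 10 tested genes most like the enzyme mean were Grpel1 (r = 0.96), Selenof (0.95), Spon2 (0.94), Aspn (0.94), Zfp711 (0.94), H2ax (0.94), Mex3c (0.93), Id2 (0.93), Ezh2 (0.92) and Ugp2 (0.92). Spon2 and Aspn stood below 2 CPM. No gene of the wider lists was among these 10, and each of the 10 outranked every enzyme of the set. They were picked as the largest r of 15488 genes over only 10 libraries, and such a pick yields high r by itself. The ranks are also not strictly alike, because each enzyme was left out of its own mean while these genes were set against all 19. A closer tie to the pathway than that of its enzymes was not tested.

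Sex, as read from the counts, varied within both genotypes, and this comparison was chosen after the values were seen. Tm7sf2 held 56.6 to 63.8 CPM in the 3 male libraries and 41.6 to 54.8 CPM in the 7 female libraries. Ebp, which is X-linked, held 11.6 to 12.8 CPM in the 3 male libraries and 7.73 to 11.1 CPM in the 7 female libraries, and Msmo1 119 to 121 CPM in the 3 male libraries and 105 to 115 CPM in the 7 female libraries. In these 3 members all male libraries lay above all female libraries, where male and female libraries did not overlap for 1.82% of tested genes. In a fit with genotype and sex the log2 difference of male over female was 0.25 (SE 0.0693, adjusted p = 0.741) for Tm7sf2, 0.40 (SE 0.142, adjusted p = 0.863) for Ebp and 0.13 (SE 0.055, adjusted p = 0.957) for Msmo1. None passed edgeR's test, as 0 of 32 members did, against 0.0258% of tested genes, and 3 of 32 had an unadjusted p under 0.05, against 4.93%. 2 of the 3 male libraries were knockout. With sex in the fit the genotype difference of Tm7sf2 was 0.18 (unadjusted p = 0.0103), that of Ebp turned from 0.039 to -0.043, and that of Abca1 was -0.22.

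The genes around the pathway were read from the same fit. Of 73 tested genes in 3 further lists 0 passed the edgeR test (0.381% of all tested genes did) and 2 had an unadjusted p under 0.05 (2.74%, against 8.71% of all tested genes). Of the 73 genes 43 had a positive log2 fold change and 30 a negative one, with a median of 0.025. Among 19 genes of sterol control and isoprenoid synthesis those of small p included Erlin2, part of the complex that degrades sterol-regulated proteins (-0.098, SE 0.0559), and Ggps1, the geranylgeranyl diphosphate synthase (0.10, SE 0.0653). Among 21 genes of sterol uptake, transport and turnover the smallest p belonged to Cyp46a1, the neuronal cholesterol hydroxylase (0.089, SE 0.0556), the sterol transfer gene Gramd1a (-0.063, SE 0.0483) and the exporter gene Abcg4 (-0.074, SE 0.0593).

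Among 33 tested genes of fatty acid supply, elongation and desaturation, Fabp7 had the smallest p. It encodes the fatty acid binding protein of radial glia and young astrocytes, and averaged 312 ± 28.1 CPM over the wild-type libraries and 274 ± 24.4 CPM over the knockout libraries (SD, n = 5 each; log2 fold change -0.19, SE 0.064, adjusted p = 0.322). With no filter on low counts it passed edgeR's test (-0.19, adjusted p = 0.0347). Fabp7 also ran with the cholesterol enzymes over the libraries (r = 0.73 to their mean). Mcat, of mitochondrial fatty acid synthesis, was at 0.18 (SE 0.0844). Acacb, the carboxylase isoform that regulates fatty acid oxidation, was low in the cortex (4.54 CPM in wild type) and at -0.37 (SE 0.198), or -0.71 without knockout replicates 3, 5 and 6; neither was called.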

How the data were processed

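Total RNA was extracted from postnatal day 8 cortex with an RNeasy Mini kit, per the labels' protocols. The authors deposited a single table of raw counts (whole numbers) by gene identifier. HISAT2, featureCounts and the build mm39 are named in the submitters' processing notes, while versions, annotation, strandedness and the handling of multiply aligned reads are not given in the sources at hand. A RefSeq table of GRCm38.p6 gave symbols for 30648 of 30935 identifiers. No column was left out.

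Genotypes were compared with edgeR 4.0.16 in R 4.3.3: filterByExpr (15488 genes left), TMM factors, then a robust two-sided quasi-likelihood F test, with Benjamini-Hochberg adjustment over all tested genes and a threshold of 0.05. Each SE is the log2 fold change over the square root of F, and the intervals have a level of 95%. Correlations used log2 CPM (prior count 2) with genotype means subtracted. Lengths were unions of GENCODE M21 exons. The genes named were all members, the 3 of smallest p in each wider list and any past the threshold, the 10 most like the enzyme mean (predicted genes passed over), genes that overlap a member's exons, and defining markers; 1 gene that this rule names is not reported here. Members and lists were chosen with earlier results of these data known, and they do not hold every gene of the pathway.

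Alternatives were RLE and upper quartile factors, library totals alone, no filter, a minimum of 50 counts in 5 libraries, DESeq2 1.42.0, voom from limma 3.58.1, leaving out each library, leaving out knockout replicates 3, 5 and 6, a replicate block and a sex covariate. Leaving out knockout replicates 3, 5 and 6 kept only knockout replicates 1 and 8, both female. In the replicate block only the numbers 5 and 6 occur in both genotypes, so its genotype difference rests on those libraries. The code was tested on simulated counts.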

Additional observations from a re-analysis of the deposited data

Results flagged for a closer look

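2 of the 64 sets of 5 libraries (32 members in each genotype) had an end library standing well apart from its neighbours. Chance gives about 1 in 20, so this count is no higher than chance alone would give. Sqle, the squalene epoxidase gene, was low in wild-type replicate 5, at 186.5 CPM against 210.5 to 218.9 CPM in the rest of that genotype. Cyp51, the lanosterol demethylase gene, was high in wild-type replicate 4, at 162.4 CPM against 150.1 to 152.0 CPM. That library also had 17 of 19 cholesterol enzymes above the wild-type mean, Cyp51 itself among them.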

How the results depend on the processing

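Under the 20 alternatives 0 of 32 members passed, except 1, Abca1, with no filter on low counts, where 1 gene of the wider lists, Fabp7, also passed and 171 of all genes did. The number of all genes called was 124 with DESeq2, 12 without knockout replicates 3, 5 and 6, 28 with the sex covariate and 27 with the replicate block, and 15 to 182 with 1 library left out. Members at an unadjusted p under 0.05 numbered 2 without knockout replicates 3, 5 and 6, 1 with the replicate block, and 4 to 8 with 1 library left out. With 1 library left out the median log2 fold change ran from -0.1114 to -0.0295 for the mevalonate steps, from -0.0479 to 0.0069 for the squalene and sterol steps, from -0.0326 to 0.0158 for the regulators and carriers and from -0.0605 to -0.0169 for the fatty acid steps; with the replicate block it was -0.0695 for the regulators and carriers and -0.0796 for the fatty acid steps. Without knockout replicates 3, 5 and 6 it was -0.028 for the mevalonate steps, -0.0302 for the squalene and sterol steps, -0.0129 for the regulators and carriers and -0.0684 for the fatty acid steps, and with the sex covariate it was -0.0511 for the squalene and sterol steps. Under the remaining alternatives the median of the regulators and carriers lay between -0.0111 and -0.0007.

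The sign of 21 members' log2 fold changes held in all 20 alternatives. Idi1, Sqle, Cyp51, Ebp, Insig1, Stard4, Dhcr7, Elovl6, Scap, Mvd and Pmvk changed sign, none of them called. The replicate block draws its genotype difference from replicates 5 and 6 of each genotype alone. With it Idi1 was at -0.0896, Sqle at 0.0402, Cyp51 at -0.0031, Scap at -0.0316, Mvd at 0.0496 and Pmvk at 0.0451. Without knockout replicates 3, 5 and 6 Ebp was at -0.0242, Insig1 at 0.0405, Mvd at 0.0125 and Stard4 at -0.0129. Cyp51 was at -0.0011 with library totals alone and -0.002 with upper quartile factors, Sqle at 0.0005 with DESeq2 and 0.0006 with RLE size factors, and Ebp at -0.0429 with the sex covariate. With 1 library left out the ranges were Idi1 -0.0657 to 0.0544, Sqle -0.036 to 0.0237, Cyp51 -0.0152 to 0.0265, Ebp -0.0401 to 0.1445, Insig1 -0.0356 to 0.0351, Stard4 -0.0012 to 0.054, Dhcr7 -0.0758 to 0.003 and Elovl6 -0.0511 to 0.0073.

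The median pairwise r of the cholesterol enzymes was 0.36 with library totals alone, 0.29 with no centring, 0.41 in the knockout libraries alone and 0.28 to 0.39 with 1 library left out. The replicate numbers 5 and 6 occur in both genotypes. Same-numbered libraries did not deviate together (r = -0.03 and -0.057 over 15488 genes), and crossed pairs had r = 0.006 and 0.083. These values showed no pairing by number, but so few pairs cannot show whether samples shared a litter or batch. The SEs of the members ran from 0.0386 to 0.145, and the causes of the changes above were not tested.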
